A study of Mus musculus with 6 samples.

Results

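The clock output genes are those through which the circadian clock of a cell passes its rhythm to other genes. Here they were Dbp, Tef, Hlf, Nfil3, Bhlhe40, Bhlhe41 and Usp2, taken as every probe set whose platform annotation gave exactly 1 gene symbol and that symbol was 1 of these 7. Each gene had 1 such probe set, so that 7 genes of 15384 with a probe set of 1 symbol were followed, and all 7 passed the filter on low values. The first 6 encode transcription factors, whereas Usp2 encodes a deubiquitinating protease and was kept because the rule names it.

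The data were 3 arrays of adrenal RNA from female C57Bl/6J offspring with developmental NMDA receptor antagonism (CGP) and 3 arrays from age-matched female C57Bl/6J controls. In the CGP group the dams received CGP 39551, which blocks the NMDA receptor, a glutamate receptor named for its ligand N-methyl-D-aspartate, at 5 mg/kg body weight by mouth during pregnancy and up to the end of weaning, and the labels record no drug for controls. Adrenals of both groups were taken at 21 weeks of age, and RNA of 18 mice was pooled in each group. The labels leave unsaid whether arrays of a group shared 1 pool. The p-values therefore rest on array-to-array spread alone, which may be technical, with no estimate of how mice differ. The time of day of collection, which sets the level of a rhythmic gene, is not given in the sources used here. In bulk RNA, fewer cells of a type and less RNA per cell cannot be told apart.

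In the mammalian clock, CLOCK and BMAL1 (gene Arntl) bind a DNA element called the E-box and drive the Per, Cry and Nr1d genes, whose products in turn repress CLOCK and BMAL1 or the Arntl gene. The same E-box drive acts on Dbp, Tef and Hlf, the PAR bZIP factors (proline and acidic amino acid rich, with a basic leucine zipper), which activate genes that carry a D-box. NFIL3 (also called E4BP4) binds the same D-boxes and represses, and its gene is itself repressed by the nuclear receptor NR1D1 (REV-ERB alpha). BHLHE40 and BHLHE41 (DEC1 and DEC2) bind E-boxes and repress CLOCK and BMAL1. In the adrenal cortex this clock is known for setting the daily response to corticotropin and the rhythm of corticosterone.

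Of the 7 output genes, Dbp was upregulated and Usp2 was downregulated in the CGP group, and the other 5 did not pass the test (limma, adjusted p under 0.05). Over all 16034 probe sets tested, 3.53% passed, with 1.94% higher and 1.59% lower in CGP. The sequences upstream of the output genes are given first, with Dbp and Usp2 in full because these were the genes that passed. In each of these windows, which run from 250 bases before to 50 after a transcription start in RefSeq (GRCm38.p6), the capital marks the start base.
Dbp, chr7:45704997-45705296, + strand: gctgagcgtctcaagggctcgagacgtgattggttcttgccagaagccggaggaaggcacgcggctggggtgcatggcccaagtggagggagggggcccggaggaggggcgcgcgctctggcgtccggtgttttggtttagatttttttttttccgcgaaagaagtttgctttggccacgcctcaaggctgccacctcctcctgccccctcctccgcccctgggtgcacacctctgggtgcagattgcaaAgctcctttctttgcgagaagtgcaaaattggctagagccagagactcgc
Usp2, chr9:44084670-44084969, + strand: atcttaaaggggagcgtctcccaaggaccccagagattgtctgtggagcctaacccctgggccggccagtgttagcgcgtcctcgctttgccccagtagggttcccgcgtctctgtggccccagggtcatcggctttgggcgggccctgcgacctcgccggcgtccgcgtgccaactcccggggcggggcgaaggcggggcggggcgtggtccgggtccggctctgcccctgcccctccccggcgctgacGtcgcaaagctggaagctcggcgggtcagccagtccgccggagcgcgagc

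Windows were found for 6 of the 7 genes, 7 in all because Tef has a pair of starts. Bhlhe40 was not among them. The E-box CACGTG, read on both strands, was found in 3 of the 7 windows and in 7.15% of all 32851 windows of the same length. The stretches that hold it are shown with the E-box in capitals, since this is the element that CLOCK and BMAL1 bind.
Tef, upstream start, chr15:81802526-81802571, + strand: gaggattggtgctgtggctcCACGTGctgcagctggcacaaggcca
Tef, downstream start, chr15:81811256-81811301, + strand: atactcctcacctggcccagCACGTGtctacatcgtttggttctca
Bhlhe41, chr6:145865548-145865593, - strand: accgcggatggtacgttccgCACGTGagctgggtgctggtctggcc
The motif began 127 and 138 bases before the Tef starts and 153 bases before the Bhlhe41 start. The windows of Dbp, Usp2, Hlf and Nfil3 did not hold these letters. E-boxes outside the windows, or with other letters, were not searched, and a link between the motif and the test results was not tested. The D-box was searched as TTATGCAA, TTACGTAA and TTATGTAA on both strands, and 0 of the 7 windows held any of these, against 0.743%, 0.119% and 0.938% of all windows. With shares this low, finding none in 7 windows says little. The 7 windows held 60.3% to 81.7% G and C bases, against a median of 52.7% over all windows. The shares over all windows, also for the E-box, thus come from sequences of other base content. Of the other elements searched, the cyclic AMP response element TGACGTCA was found in the Hlf window (1.79% of all windows) and the nuclear receptor half-site AGGTCA in the Nfil3 window (16.3% of all windows). These matches describe letters in a window and do not show a bound site.

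Of the 3 PAR bZIP activators, Dbp passed the test and Tef and Hlf did not. Dbp, named for its binding to the D-element of the albumin promoter, had log2 values of 9.44, 9.40 and 9.34 on the CGP arrays, against 8.94, 9.10 and 9.04 on the control arrays. All CGP arrays lay above all control arrays, with a gap of 0.25 between the lowest CGP and the highest control value. The mean was 9.40 ± 0.05 in CGP and 9.02 ± 0.08 in controls (SD, n = 3 arrays each), a rise of 0.37 (SE 0.06) or 1.29-fold (limma adjusted p = 0.0123). By p-value Dbp ranked 254 of the 16034 probe sets, and 2.15% of them differed by more in either direction. Its call was lost without CGP array 1 (adjusted p = 0.0560), CGP array 2 (0.0714) or control array 3 (0.0540), whereas its log2 fold change stayed between 0.33 and 0.41 when any 1 array was left out.

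Tef, the thyrotroph embryonic factor, had values of 8.36, 8.40 and 8.41 in CGP and 8.43, 8.22 and 8.40 in controls. The groups overlapped, and control array 2 lay apart from the other arrays on the low side. The difference was 0.04 (SE 0.06, 95% interval -0.10 to 0.18, adjusted p = 0.756), and it changed sign to -0.02 without control array 2. Hlf, the hepatic leukaemia factor, had values of 8.26, 8.10 and 8.07 in CGP and 8.19, 8.19 and 8.24 in controls. CGP array 1 was the highest of all 6 and the other CGP arrays were the lowest. The difference of -0.06 (SE 0.06, 95% interval -0.20 to 0.08) did not pass the test (adjusted p = 0.607).

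The repressor Nfil3, which competes with the PAR bZIP factors for the D-box, had values of 9.88, 9.76 and 9.79 in CGP, against 9.86, 9.83 and 9.95 in controls. The groups overlapped, with a difference of -0.07 (SE 0.05, 95% interval -0.20 to 0.06, adjusted p = 0.517). Nr1d1, whose product represses Nfil3, rose in the same comparison, and a link between these genes was not tested. The interval for Nfil3 includes a decrease of up to 0.20 and an increase of up to 0.06 on the log2 scale.

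Dbp was compared with its relatives by the difference of log2 values within each array. Dbp minus Tef was higher in CGP by 0.33, Dbp minus Hlf by 0.43 and Dbp minus Nfil3 by 0.44, and in each of these pairs all CGP arrays lay above all control arrays. Each gave p = 0.1 in a two-sided exact permutation test over 3 against 3 arrays, the smallest p that this test can give with these arrays, and 0.167 adjusted over the 5 pairs compared. This exact test cannot reach the 0.05 threshold with 3 against 3 arrays, so its p does not bear on whether Dbp differed from its relatives. The pairs with Dbp all share its values, and Tef, Hlf and Nfil3 themselves differed by 0.04, -0.06 and -0.07. They therefore restate the difference in Dbp and are not separate results. How often the groups lacked overlap in other pairs of probe sets was not counted. Tef minus Hlf was higher by 0.10 in CGP with overlapping groups (exact permutation p = 0.4, adjusted 0.5).

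**Figure D1:**
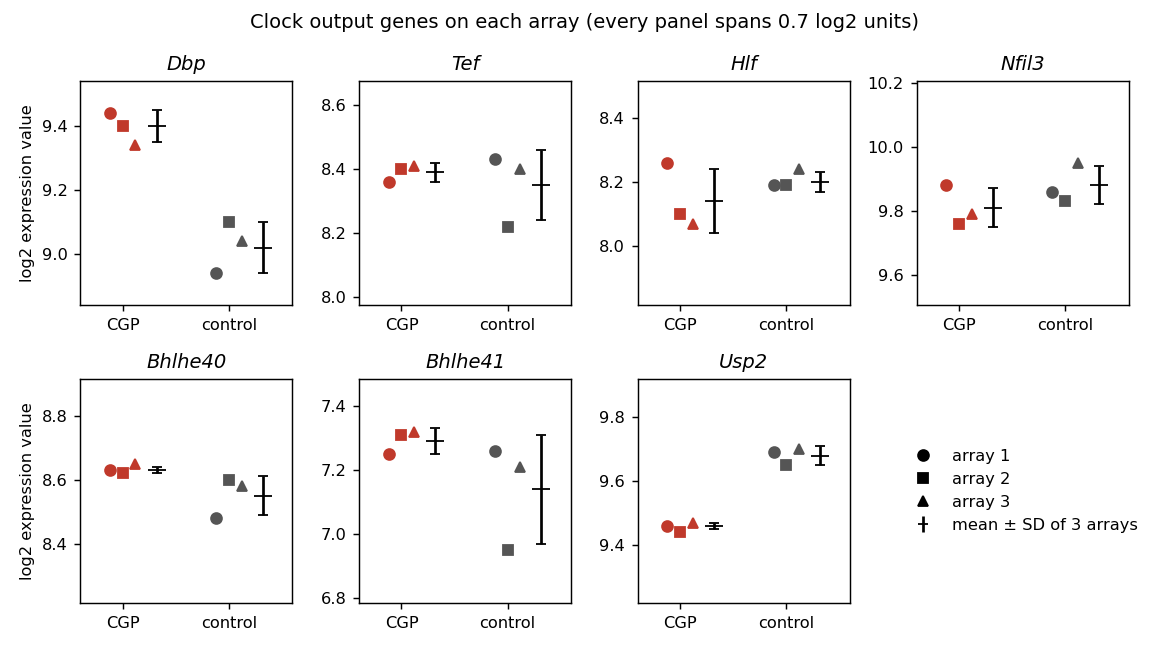
Log2 expression value (vertical axis) of the 7 clock output genes on each CGP array (red, left) and each control array (grey, right), with symbols for the array number and black bars for the mean and SD of 3 arrays. The groups are clear of each other for Dbp (a gap of 0.25) and Usp2 (0.18), nearly touch for Bhlhe40 (0.02) and overlap for the other 4, and control array 2 is low for Tef and Bhlhe41.

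The E-box repressors showed small positive differences that did not pass the test. Bhlhe40 had values of 8.63, 8.62 and 8.65 in CGP and 8.48, 8.60 and 8.58 in controls. The groups did not overlap, but the gap was 0.02 and control array 1 lay apart on the low side. The difference of 0.08 (SE 0.05, 95% interval -0.03 to 0.19, adjusted p = 0.417) was 0.04 without that array. Bhlhe41 was the dimmest of the 7 probe sets, with 7.25, 7.31 and 7.32 in CGP and 7.26, 6.95 and 7.21 in controls. The CGP arrays lay close together and control array 2 lay apart on the low side, as it did for Tef. The difference of 0.15 (SE 0.08, 95% interval -0.04 to 0.34, adjusted p = 0.347) was 0.06 without control array 2. The within-array difference of Bhlhe40 and Bhlhe41 changed by -0.07 between groups (exact permutation p = 0.8, adjusted 0.8).

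Usp2, the deubiquitinase whose transcript is rhythmic in many mouse tissues and whose product acts on clock proteins, fell. Its values were 9.46, 9.44 and 9.47 in CGP and 9.69, 9.65 and 9.70 in controls. All CGP arrays lay below all control arrays with a gap of 0.18, and the arrays of a group spanned 0.02 in CGP and 0.05 in controls. The mean was 9.46 ± 0.01 in CGP and 9.68 ± 0.03 in controls (SD, n = 3 arrays each), and Usp2 fell by 0.22 on the log2 scale (SE 0.04, 0.86 of the control level, limma adjusted p = 0.0323). By p-value it ranked 410 of 16034. The size of the change was less unusual than that of Dbp, since 8.41% of all probe sets differed by more. Control array 1 was the only array whose removal kept the call, and the adjusted p reached 0.156 without CGP array 2. The log2 fold change stayed between -0.24 and -0.21 in these fits. It was also lost when all probe sets were tested with or without a symbol (adjusted p = 0.0645).

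**Figure D2:**
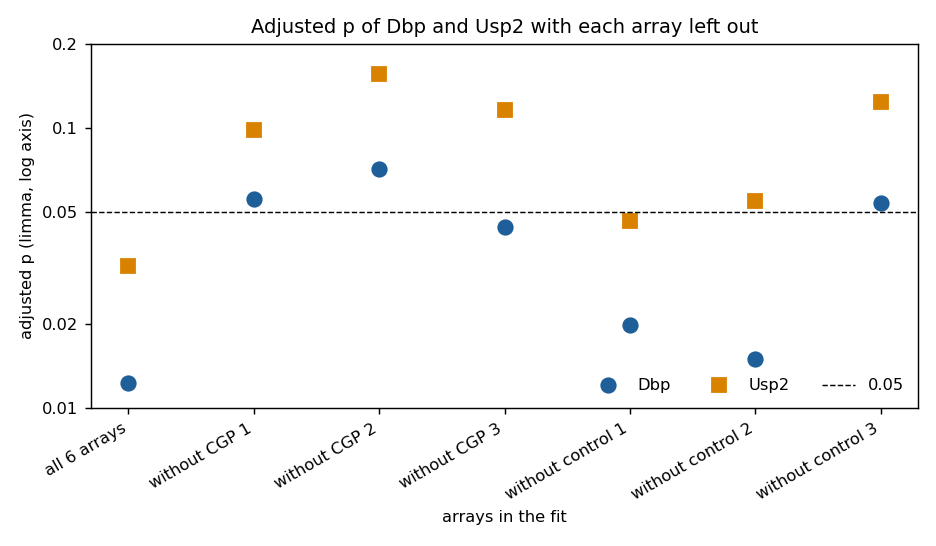
Adjusted p (vertical axis, log scale) of Dbp (circles) and Usp2 (squares) in limma fits of all 6 arrays and with each array left out in turn (horizontal axis), with a dashed line at 0.05. With all arrays the values are 0.0123 and 0.0323, Dbp lies above the line without CGP 1, CGP 2 or control 3, and Usp2 lies below it among these fits only with all arrays and without control 1.

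In total, 4 of the 7 genes had a positive and 3 a negative difference, with a median of 0.04, against a median of -0.011 over all probe sets tested. The groups did not overlap for 3 of the 7 (Dbp, Usp2 and Bhlhe40), and for 26.3% of all probe sets tested. Only Dbp and Usp2 had an unadjusted p under 0.05. All 7 genes lay above the array background on every array. The lowest of their values was 6.95. Background was set for each array at the 75th percentile of 127 chemosensory receptor probe sets (olfactory, vomeronasal, trace amine) and came to 6.42 to 6.65.

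The core clock genes, from which these outputs are driven, also moved in part. Of 10 such genes tested, 3 were upregulated in CGP (Nr1d1, Nr1d2 and Clock), 0 were downregulated and 7 did not pass, with a median of -0.05. Nr1d1, encoding REV-ERB alpha, a repressor of Arntl and Nfil3, had values of 12.14, 12.16 and 12.09 in CGP and 11.77, 11.84 and 11.82 in controls, a rise of 0.32 (SE 0.05, adjusted p = 0.00897). Its relative Nr1d2 (REV-ERB beta) rose by 0.26 (SE 0.05, adjusted p = 0.0381), with 9.11, 8.99 and 9.04 in CGP and 8.84, 8.77 and 8.76 in controls. For both genes all CGP arrays lay above all control arrays, as for Dbp. Nr1d1 lost its call without CGP array 2 (adjusted p = 0.0627), and that of Nr1d2 held without control array 1 but reached 0.137 among the fits with another array left out. The Nr1d2 call was also lost when probe sets without a single symbol were added to the test (adjusted p = 0.0834).

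The other E-box driven genes of the loop did not pass the test. Per1, Per2 and Cry2, whose products repress CLOCK and BMAL1, had differences of -0.09 (adjusted p = 0.266), -0.11 (0.320) and -0.17 (0.140). The groups did not overlap for any of these 3, for 8 of the 10 core clock genes tested and for 26.3% of all probe sets tested. They nearly touched for Per2, with a highest CGP value of 9.44 and a lowest control value of 9.45. The same held for Arntl (9.40 and 9.41) and Cry1 (7.50 and 7.52), and the gaps were wider for the other genes without overlap. Per3 differed by 0.00 (SE 0.06, 95% interval -0.13 to 0.13, adjusted p = 0.993). Ciart, a further repressor, lay under the array background on all arrays, so that its test cannot show a change. On the side of the loop that NR1D1 represses, Arntl had values of 9.37, 9.40 and 9.31 in CGP and 9.53, 9.41 and 9.50 in controls (-0.12, adjusted p = 0.261), and Cry1 differed by -0.10 (adjusted p = 0.309). Clock, the partner of BMAL1, rose by 0.36 (SE 0.06, adjusted p = 0.0156), with 8.53, 8.55 and 8.51 in CGP and 8.27, 8.16 and 8.08 in controls. This call was lost in the 4 fits without CGP array 1, 2 or 3 or control array 3 (highest adjusted p 0.0870). Dbp, Nr1d1, Nr1d2 and Clock thus passed upwards, whereas Usp2 passed downwards and Per1, Per2, Cry1, Cry2 and Arntl had negative differences that did not pass.

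**Figure D3:**
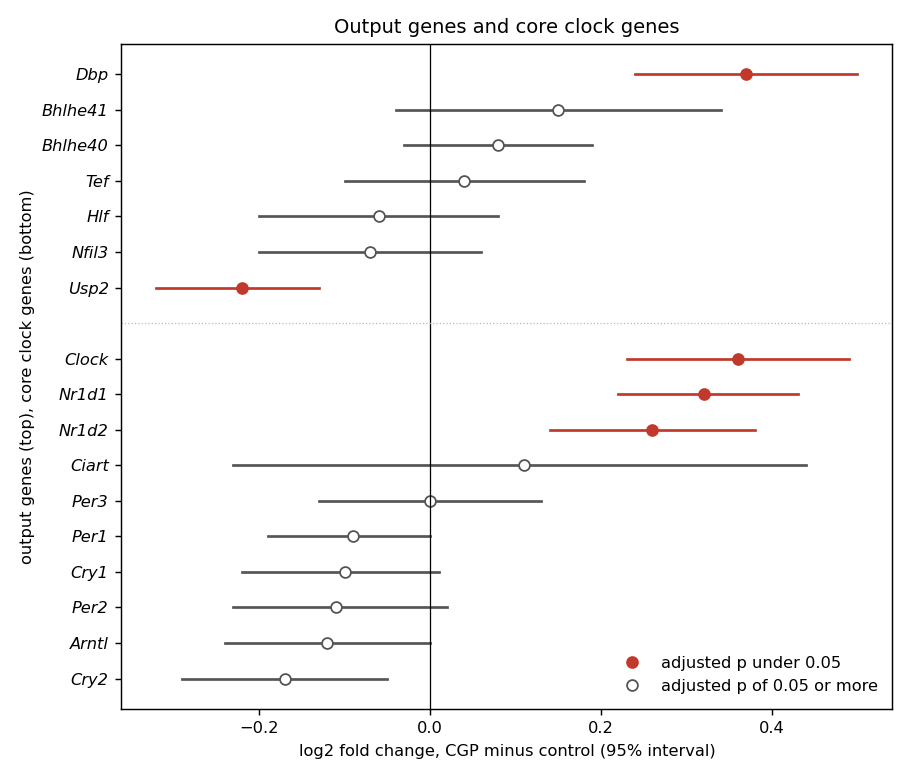
Fold change on the log2 scale (CGP minus control, horizontal axis) with its 95% interval for the 7 output genes (top) and the 10 tested core clock genes (bottom), filled red where the adjusted p was under 0.05. Dbp (0.37), Clock (0.36), Nr1d1 (0.32) and Nr1d2 (0.26) are filled on the right and Usp2 (-0.22) on the left, and the intervals of the other 5 output genes include 0.

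Outside the core loop, 0 of 5 tested clock regulators passed the test (Rora, Csnk1d, Csnk1e, Fbxl21 and Timeless), and Rora, an activator of Arntl, was nearest to it with 0.14 (SE 0.05, adjusted p = 0.172). Rorb lay under the filter. Of 5 further genes known to be clock-controlled (Wee1, Tsc22d3, Tspan4, Lonrf3 and Leo1), 0 passed, and their median was -0.01. Lonrf3 lay near the array background (6.37 to 6.83, against a background of 6.42 to 6.65), so that its test can show little. By an unadjusted p under 0.05, Rora was the only 1 of these 10.

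Genes known to be activated by the PAR bZIP factors in mouse liver, brain or both were followed for comparison with Dbp. Of 8 listed, 5 were tested, 0 were upregulated, 2 were downregulated and 3 did not pass, with a median of -0.05. Por, Cyp2a4 and Cyp2a5 were not analysed here. Pdxk, the kinase that makes the active form of vitamin B6, differed by -0.05 (SE 0.04, adjusted p = 0.536) and Alas1, the first enzyme of haem synthesis, by 0.03 (SE 0.05, adjusted p = 0.711). Cyp2b10, a drug-metabolising cytochrome, differed by 0.03 (SE 0.08, adjusted p = 0.859). The genes that fell were Nr1i3, the xenobiotic receptor CAR (7.12, 7.06 and 6.86 in CGP and 7.45, 7.32 and 7.57 in controls, adjusted p = 0.0364), and Cyp7a1, which starts bile acid synthesis and whose CGP values lay under the array background (adjusted p = 6.9e-05). Both are expressed chiefly in liver, and Cyp7a1 also stands in the hepatocyte list that fell in the same arrays.

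Markers of liver and fat moved with the groups and so with Dbp and Usp2. Of 37 hepatocyte genes tested (of 41 listed), 35 were lower in CGP and 0 higher (Cyp2e1 and Trf did not pass). The summed linear level of the list was 40970 to 41695 on the CGP arrays and 61777 to 62996 on the control arrays. Of 18 adipocyte genes tested (of 21 listed), 15 were higher and 0 lower (Plin1, Lipe and Thrsp did not pass), with a summed level of 56801 to 57502 in CGP and 40880 to 42011 in controls. Albumin (Alb) was at 12.92 to 13.02 in CGP and 13.39 to 13.42 in controls, and adiponectin (Adipoq) at 11.52 to 11.57 in CGP and 10.97 to 11.03 in controls. Dbp, which rose, is expressed in both of these tissues, and the part that liver or fat tissue had in the results for Dbp and Usp2 was not tested. Markers of the adrenal itself were bright. Of 11 tested cortex genes 1, the aldosterone synthase Cyp11b2, was higher and 0 were lower (summed level 104379 to 108099 in CGP and 99086 to 102852 in controls). Star, Cyp11a1, Cyp11b1, Th and Pnmt, which mark cortex and medulla, all had means above 12 and did not pass. Of 8 medulla, 6 endothelial, 5 immune, 4 skeletal muscle and 3 kidney tubule genes tested, 0 passed in either direction. The kidney gene Cdh16 lay under the array background on most arrays (means 6.31 in CGP and 6.47 in controls), so that its test can show little.

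The genes whose values over the 6 arrays ran closest to those of Dbp and Usp2 were found by the root mean square difference after each probe set was centred on its own mean. For Dbp these were Kcnk9, a potassium channel of the zona glomerulosa (0.036), Nr1d1 (0.040) and E030011O05Rik (0.044). Kcnk9 rose by 0.39 (adjusted p = 0.00476) and E030011O05Rik by 0.33 (adjusted p = 0.0252). A core clock gene was thus among the 3 nearest of Dbp. In Dbp and in all 3 of these genes control array 1 was the lowest of all. For Usp2 they were Creg1, a secreted glycoprotein (0.016), Rbak, a zinc finger protein (0.019), and Ifitm1, an interferon-induced membrane protein (0.020). Creg1 fell by 0.22 (adjusted p = 0.0328) and Rbak by 0.21 (adjusted p = 0.0432), whereas Ifitm1 differed by -0.20 (adjusted p = 0.0603), and Rbak lay near the array background (means 6.50 in CGP and 6.71 in controls). None of these 3 stood in a clock list. The 6 arrays fall into 2 groups with a difference in each of these genes, so this closeness is a description.

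**Figure D4:**
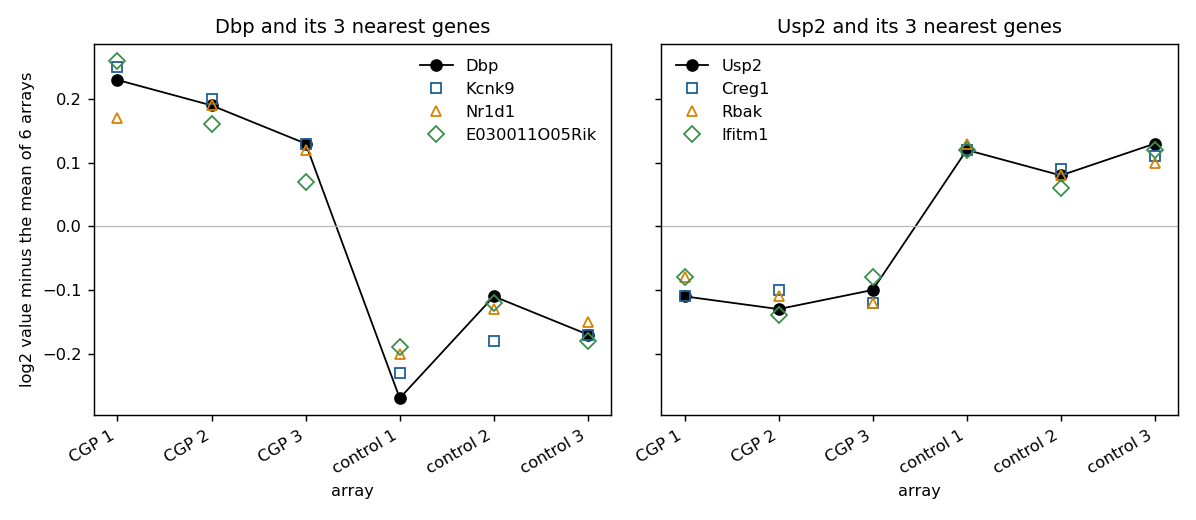
Log2 value minus the mean over 6 arrays (vertical axis) on each CGP array (left) and control array (right) for Dbp and its 3 nearest genes (left panel) and for Usp2 and its 3 nearest genes (right panel). Dbp and its 3 nearest genes all have their lowest value on control array 1 (-0.27 for Dbp and -0.20 for Nr1d1). The genes around Usp2 lie between -0.14 and -0.08 on all CGP arrays.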

How the data were processed

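The authors deposited log2 expression values of 25150 probe sets on 6 Affymetrix whole-transcript arrays, and the submitters' processing notes name RMA (background correction, quantile normalisation and probe summary) and Partek. Their versions are not given, nor are the annotation and genome build. Groups and array numbers came from the sample titles, and 0 value columns had no sample. Gene names came from the platform annotation (16769 with 1 gene symbol, 1031 with several, 7350 with none), and all 7 members matched a RefSeq symbol by Entrez number. The test covered probe sets with 1 symbol that reached 6 on the log2 scale on 3 or more arrays (16034, of 14727 genes).

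CGP and control arrays were compared two-sided and without covariates by lmFit and eBayes of limma 3.58.1 (R 4.3.3), with Benjamini-Hochberg adjustment across every tested probe set. SE and 95% intervals are the moderated ones. On simulated arrays with 200 changed probe sets of 16034 in this comparison, the test recovered 27.0% of 1.2-fold changes and 81.0% of 1.5-fold changes. Noise was drawn independently for each probe set at its observed spread between arrays. Shared array effects and differences between mice were thus not simulated. The number of arrays limits the precision. List counts used the brightest probe set of a gene, and sums were taken over linear values. The named genes were all members, the core clock genes, clock list genes that passed, the 3 nearest profiles of each member that passed and defining cell type markers. Genes outside this rule, named after their values were seen, were the members of the shorter lists that did not pass. From the marker lists, Cyp11b2, which passed, and Cyp2e1, Trf, Plin1, Lipe, Thrsp and Cdh16, which did not, were also named in this way. Members and lists were chosen with earlier results of these data known. Alternative fits changed the filter, normalisation, set of probe sets, variance model or array weights, required a minimum change, blocked on array number, or omitted 1 array.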

Additional observations from a re-analysis of the deposited data

How the results depend on the processing

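Of the output genes, 1 was higher and 1 lower, and of the other clock genes tested 3 were higher and 0 lower. These counts were the same without the filter, with a log2 minimum of 7, with quantile normalisation, with median centring and with a variance trend and robust prior. With all probe sets tested with or without a symbol, 0 output genes were lower and 2 other clock genes were higher, with Nr1d2 no longer passing (adjusted p = 0.0834). With array weights, 1 other clock gene was lower. At a minimum change of 1.2-fold, 0 output genes were higher, 0 were lower and 0 other clock genes were higher. With the array number as a replicate block these 3 counts were also 0 (Dbp adjusted p = 0.0764, Usp2 0.164), and over all probe sets 224 passed, against 566 without it. Deviations from the group means on arrays of the same number correlated at -0.357, -0.169 and -0.118. On arrays of different numbers they correlated at -0.157 to 0.276. The same numbers thus gave no sign of pairing. Deviations within a group sum to 0, so these few correlations cannot settle whether arrays were paired. With 1 array left out, the output genes numbered 0 to 1 higher and 0 to 1 lower and the other clock genes 0 to 3 higher, and Tef lay between -0.02 and 0.08, reversed only without control array 2. Of the 15 alternatives, the Dbp call held in 10 (adjusted p 0.00051 to 1.0 over all) and the Usp2 call in 7 (0.00432 to 1.0), and neither log2 fold change reversed. Hlf, Nfil3, Bhlhe40 and Bhlhe41 kept their direction and did not pass in any of the 15. Over all probe sets the number that passed was 126 at a minimum change of 1.2-fold, 382 with all probe sets, 1261 with the variance trend, 1665 with array weights and 236 to 1099 with 1 array left out. The causes of these differences were not tested.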

Other observations

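Further basic leucine zipper and basic helix-loop-helix genes, from the wider families of the output genes, were looked at beside them. Of 7 tested (Cebpa, Cebpb, Cebpd, Cebpg, Hes1, Hey1 and Hey2), 0 passed the test, with a median of 0.04. Cebpa, a factor of hepatocyte and adipocyte differentiation, had values of 9.42 to 9.60 in CGP and 9.19 to 9.32 in controls, without overlap (0.26, SE 0.06, limma adjusted p = 0.0695). Its relative Cebpb averaged 9.96 ± 0.04 in CGP and 10.16 ± 0.11 in controls (SD, n = 3 arrays each, -0.21, SE 0.06, limma adjusted p = 0.139), so that this pair had differences of opposite sign. By an unadjusted p under 0.05, Cebpa and Cebpb were the 2 of the 7. Hey2 lay under the array background on all arrays, so that its test cannot show a change.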
